A study of Mus musculus with 12 samples.

Results

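Intercalated cells are the acid-base cells of the kidney's connecting tubule and collecting duct, and 9 of their genes were followed in the kidneys of mice given the platinum drug cisplatin. The 9 genes are Foxi1, Slc4a1, Slc26a4, Slc4a9, Atp6v1b1, Atp6v0d2, Atp6v1g3, Rhcg and Car2. They were chosen by name for their known function, with earlier results of these data known. Each was found once by its symbol among the 45777 genes of the deposited count table. All 9 passed the filter on low counts and were among the 18730 genes tested. The question put to the data was how genes of the acid-secreting cells compared with genes of the base-secreting cells.

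Type A intercalated cells secrete acid into the urine with a proton pump on their luminal side and return bicarbonate to the blood through the anion exchanger AE1, the product of Slc4a1. Type B cells carry the pump on the other side and secrete bicarbonate through pendrin, the product of Slc26a4. Both kinds depend in mice on the forkhead transcription factor FOXI1, whose known target promoters include that of the pump subunit gene Atp6v1b1, and both use carbonic anhydrase II to make protons and bicarbonate.

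The samples were kidneys of male wild-type C57BL/6 mice, in 4 groups of 3 libraries. The PBS group received cisplatin at 9 mg/kg into the peritoneum, weekly for 5 cycles, and then 5 intravenous injections of phosphate-buffered saline 3 days apart. The EV200 and EV400 groups received the same cisplatin and then, on the same schedule, 200 or 400 µg of extracellular vesicles from cells that the labels abbreviate iMSC. Kidneys of these cisplatin-treated mice were collected 3 days after the fifth injection. The normal group received neither cisplatin nor vesicles. No injections are listed for it, so effects of the drug and of the injections cannot be told apart. The labels give neither the age of the mice nor the hour of collection. They place all libraries in 1 batch and call the 3 libraries of a group biological replicates without stating that each came from a separate mouse, so p-values measure only the spread between these samples. In bulk tissue, fewer cells of a type and less RNA per cell cannot be told apart.

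The promoters of Foxi1, Atp6v1b1 and Slc26a4 are shown because the results turn on the transcription factor, on a gene it is known to act on in both cell types, and on the gene that defines the type B cell. Each is the stretch of 250 bases before the start that RefSeq's promoter table uses, from RefSeq on build GRCm38.p6, written 5′ to 3′ on the gene's strand. For Slc26a4 that start lies inside the span annotated for the gene, so the end of its window overlaps the gene. Capitals mark a forkhead core motif. The motifs searched, on both strands, were TGTTTAC and TGTTTGC.
Foxi1 (chr11:34208090-34208339, minus strand): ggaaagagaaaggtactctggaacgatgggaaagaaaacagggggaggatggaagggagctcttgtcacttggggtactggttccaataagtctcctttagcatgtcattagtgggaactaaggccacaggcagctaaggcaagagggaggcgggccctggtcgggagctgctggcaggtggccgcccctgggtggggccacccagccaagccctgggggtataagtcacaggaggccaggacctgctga
Atp6v1b1 (chr6:83742767-83743016, plus strand): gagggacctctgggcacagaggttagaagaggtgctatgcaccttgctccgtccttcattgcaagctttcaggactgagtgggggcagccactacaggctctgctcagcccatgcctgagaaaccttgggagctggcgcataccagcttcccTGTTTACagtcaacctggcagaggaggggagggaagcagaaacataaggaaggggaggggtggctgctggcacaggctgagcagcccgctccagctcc
Slc26a4 (chr12:31559985-31560234, minus strand): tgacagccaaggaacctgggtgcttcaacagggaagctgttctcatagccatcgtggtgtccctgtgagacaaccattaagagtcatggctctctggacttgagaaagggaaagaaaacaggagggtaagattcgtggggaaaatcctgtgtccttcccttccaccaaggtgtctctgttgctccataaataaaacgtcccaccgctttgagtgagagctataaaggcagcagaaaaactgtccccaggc

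The window of Atp6v1b1 held 1 match, TGTTTAC on the gene's own strand, starting 98 bases before that start. The windows of Foxi1 and Slc26a4 held none, and neither did those of Atp6v1g3 and Rhcg, the other members with a RefSeq promoter at hand. Of 32851 promoter windows of the same length, 7.29% held either motif, 3.17% held TGTTTAC and 4.3% held TGTTTGC. A match is a description of the letters in the window, not a measured binding site.

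All 9 genes were well expressed, with total counts of 46.6 to 62.1 M per library and no fewer than 889 counts for any of the 9 genes in a library. Levels between genes can be compared only per length, for which the authors' TPM, a unit scaled for gene length and sequencing depth, were used. Car2, which encodes the soluble carbonic anhydrase II, was the most abundant at 197 to 266 TPM over the 12 libraries, with a median of 231 TPM. Atp6v1b1, the pump's B1 subunit, ranged from 56.6 to 88.9 TPM, and Rhcg, an ammonia transport protein, had a median of 67.3 TPM and reached 77.2 TPM. Both type B exchangers lay lower and close together, Slc4a9 at 28.5 to 48.4 TPM and Slc26a4 at 28.3 to 46.1 TPM. Atp6v1g3 ranged from 25.6 to 35.8 TPM and Atp6v0d2 from 17.5 to 33.5 TPM. The regulator Foxi1, at 12.8 to 26.3 TPM, and the type A exchanger Slc4a1, at 13.2 to 25.5 TPM, were the least abundant of the 9.

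Of the 9 genes, 1 was called between PBS and normal kidneys: Foxi1 rose. A called gene is one with an adjusted p under 0.05 (Benjamini-Hochberg, over all genes tested) in edgeR's quasi-likelihood test. By that rule 2.74% of all genes were called in this comparison, 345 higher and 169 lower in PBS kidneys. At an unadjusted p under 0.05 there were 3 members, Foxi1, Slc4a1 and Atp6v0d2, against 29.8% of all genes, a share close to that of the members. These 3 were also the members whose PBS libraries all lay above the normal libraries, as did 20.3% of all genes. No member lay below without overlap, against 20.0% of all genes. The median log2 fold change of the 9 genes was -0.08 in edgeR, beside 0.00 over all genes, with 3 above 0 and 6 below. These signs depended on the scale. In the authors' TPM, PBS means were higher than normal means for Atp6v1b1 (76.6 against 69.4 TPM), Car2 (234 against 218), Atp6v1g3 (28.6 against 27.7) and Rhcg (64.1 against 63.8). Only Slc26a4 (38.9 against 40.8 TPM) and Slc4a9 (39.8 against 40.3 TPM) had lower PBS means there.

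Levels between libraries are given as CPM, counts scaled to the size of each library. Foxi1, at chr11:34204341-34208089 on the minus strand, had 31.2, 30.5 and 29.2 CPM in PBS kidneys, 23.5, 25.5 and 25.2 CPM in EV200 kidneys, 25.0, 22.3 and 25.3 CPM in EV400 kidneys, and 21.3, 18.2 and 22.0 CPM in normal kidneys. The PBS libraries were the highest of all, the normal libraries the lowest, and both vesicle groups lay between them with ranges that overlapped each other and neither of the other groups. Group means were 30.3 ± 1.03 CPM for PBS, 24.7 ± 1.08 for EV200, 24.2 ± 1.63 for EV400 and 20.5 ± 1.99 for normal (SD, n = 3 each). In the authors' TPM, the PBS libraries (23.6 to 26.3 TPM) again lay above every other library, whereas EV400 (15.6 to 18.4 TPM) and normal (12.8 to 16.1 TPM) overlapped.

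Between PBS and normal kidneys, Foxi1 differed by 0.56 on the log2 scale (SE 0.09), a 1.48-fold rise with an adjusted p of 0.0321 in edgeR. The call was lost when any normal library was left out (adjusted p 0.115 to 0.142 in edgeR) or when PBS 2 was left out (0.0819), while the log2 fold change stayed between 0.49 and 0.62 over all libraries left out in turn. It also passed in DESeq2 and limma-voom, which in every comparison called more genes over the whole table than edgeR did.

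**Figure D1:**
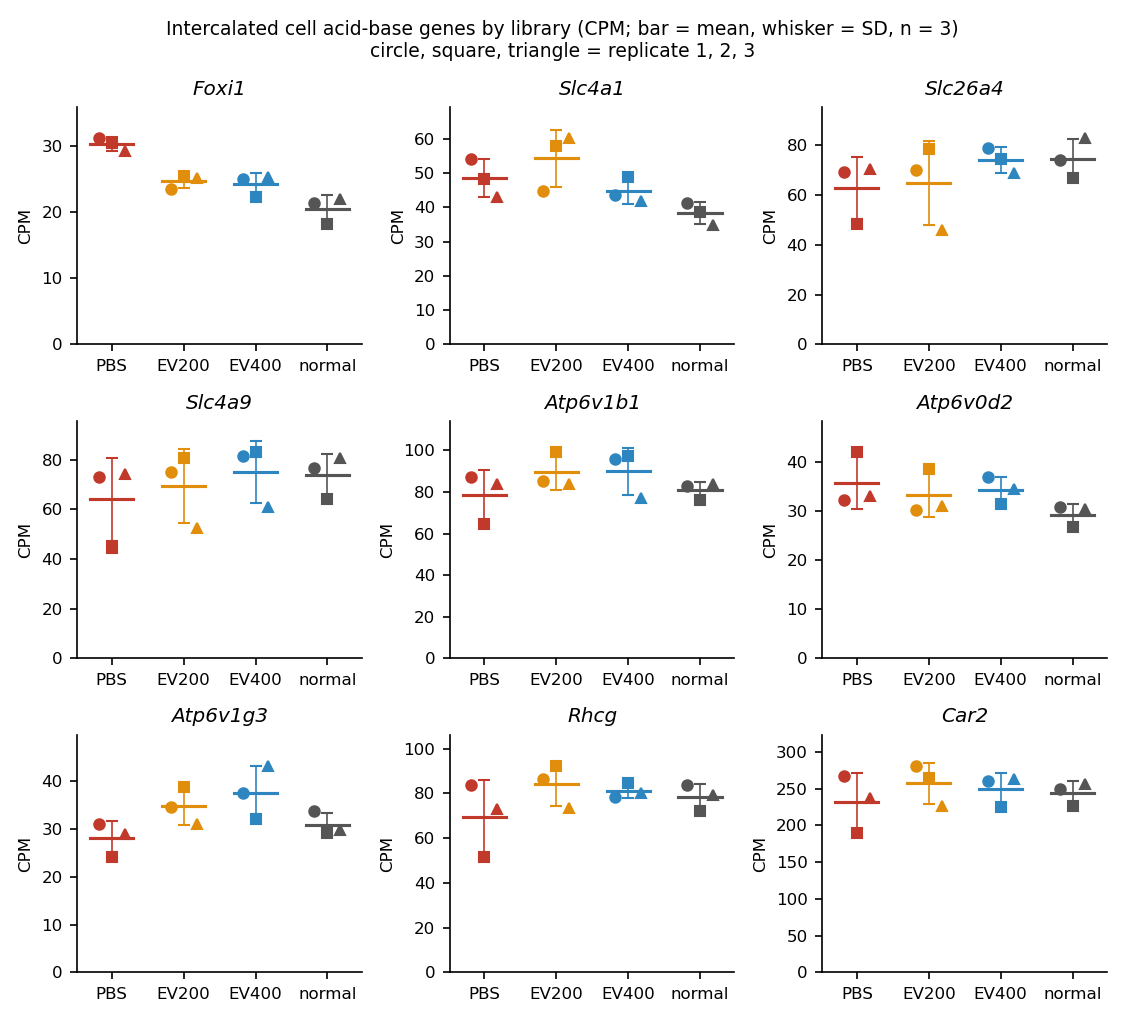
CPM of each of the 9 genes in every library, by group; a bar is the mean of 3 libraries, a whisker its SD, and the marker shape gives the replicate number. The 3 PBS libraries of Foxi1, at 29.2 to 31.2 CPM, sit above all others, while those of Slc26a4, at 48.4 to 70.4 CPM, overlap normal at 66.6 to 82.8 CPM.

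Slc4a1, the type A exchanger at chr11:102348820-102365281 on the minus strand, had 54.1, 48.2 and 43.1 CPM in PBS kidneys, 44.7, 57.9 and 60.2 CPM in EV200 kidneys, 43.6, 48.8 and 41.7 CPM in EV400 kidneys, and 41.3, 38.5 and 34.9 CPM in normal kidneys. All 9 libraries of cisplatin-treated mice lay above the 3 normal libraries, EV400 by the least, and the 3 cisplatin groups overlapped each other. In the authors' TPM, EV400 at 13.3 to 19.4 TPM overlapped normal at 13.2 to 15.4 TPM. The log2 fold change of PBS against normal was 0.34 (SE 0.12), which did not pass in edgeR (adjusted p 0.0996) and passed in DESeq2 (0.36, adjusted p 0.0477).

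Slc4a1 also makes the band 3 protein of red cells, so red cell genes were read beside it. Of 11 listed red cell genes, 10 were in the table and 8 were tested. The globin genes Hbb-bs, Hbb-bt, Hba-a1 and Hba-a2 and the red cell heme synthesis gene Alas2 fell in PBS against normal kidneys, with a list median of -1.17 on the log2 scale, and no red cell gene was called higher by edgeR, DESeq2 or limma-voom. Their summed level was 287 to 460 CPM in PBS libraries and 768 to 947 CPM in normal libraries. At least 8 of the 10 had a count in every library. The part of red cells in the Slc4a1 level was not tested.

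Slc26a4, the type B exchanger pendrin at chr12:31519814-31560055 on the minus strand, had 69.2, 48.4 and 70.4 CPM in PBS kidneys, 70.0, 78.2 and 45.8 CPM in EV200 kidneys, 78.8, 74.5 and 68.6 CPM in EV400 kidneys, and 73.9, 66.6 and 82.8 CPM in normal kidneys. The lowest values were those of EV200 3 and PBS 2, and all 4 groups overlapped. For PBS against normal the log2 fold change was -0.25 (SE 0.19, adjusted p 0.381 in edgeR), and without PBS 2 it was -0.08.

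Slc4a9 encodes AE4, an exchanger on the blood side of type B cells. It had 73.0, 44.6 and 74.4 CPM in PBS kidneys, 75.0, 80.5 and 52.6 CPM in EV200 kidneys, 81.3, 83.1 and 60.8 CPM in EV400 kidneys, and 76.8, 64.2 and 80.6 CPM in normal kidneys. PBS 2 and EV200 3 were again the lowest libraries, and all groups overlapped. The PBS-to-normal log2 fold change was -0.21 (SE 0.21, adjusted p 0.525 in edgeR), and without PBS 2 it was 0.01.

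Longer lists of each cell type were read beside these exchangers. Like the members, the lists were chosen with earlier results of these data known. Their shares beside those of all genes are therefore descriptions, not independent tests. The type A list held Slc4a1, Slc26a7, Aqp6, Kit, Adgrf5 and Dmrt2; outside the collecting duct, Kit is also expressed by mast cells and Adgrf5 by endothelium. All 6 had every PBS library above every normal library, against 20.3% of all genes, with a median log2 fold change of 0.57. An unadjusted p under 0.05 was reached by 5 of 6 in edgeR, against 29.8% of all genes, and 1 was called. The called gene, Slc26a7, a chloride-bicarbonate exchanger of the type A cell's blood side, had 3.29, 6.77 and 3.06 CPM in PBS kidneys and 1.81, 2.03 and 1.52 CPM in normal kidneys (1.29, SE 0.30, adjusted p 0.0471 in edgeR). Kit, a receptor tyrosine kinase, Dmrt2, a transcription factor, and Aqp6, a vesicle channel of the aquaporin family, had log2 differences of 0.62, 0.62 and 0.52 (adjusted p 0.0586, 0.0879 and 0.0927 in edgeR). DESeq2, which called 2806 genes in all, called 5 of the 6, all but Adgrf5, and limma-voom, which called 6164, called Kit and Slc26a7. With libraries left out in turn, an alternative chosen after seeing the data, all 6 stayed above 0, and edgeR called none without PBS 2, PBS 3 or any 1 normal library. Without PBS 2 the median was 0.44 and 3 of 6 had an unadjusted p under 0.05.

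The type B list held Slc26a4, Slc4a9, Insrr, Hmx2, Spink8 and Oxgr1. All 6 were below 0 in PBS against normal, with a median of -0.23, and none was called or reached an unadjusted p under 0.05 in edgeR. DESeq2 and limma-voom called none of the 6 either. Every gene of the list overlapped between the groups. Without PBS 2 the median was -0.04, with 5 of 6 below 0, and the summed type B level was 219 and 220 CPM in PBS 1 and PBS 3 against 201 to 250 CPM in normal libraries. Spink8 and Oxgr1, the receptor for 2-oxoglutarate on type B cells, had log2 differences of -0.30 and -0.13. In the authors' TPM, the mean of Oxgr1 was higher in PBS (12.6 TPM) than in normal kidneys (12.1 TPM), and the means of the other genes of the list were lower. The difference between the lists themselves was not tested.

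The balance of the lead gene of each type was read within each library as log2 of Slc4a1 counts over Slc26a4 counts, each plus 0.5. It was -0.36, -0.01 and -0.71 in PBS kidneys, -0.65, -0.44 and 0.39 in EV200 kidneys, -0.85, -0.61 and -0.72 in EV400 kidneys, and -0.84, -0.79 and -1.24 in normal kidneys. All PBS libraries lay above all normal libraries, and only EV200 3 had more Slc4a1 than Slc26a4 counts. Means were -0.36 ± 0.35 for PBS and -0.96 ± 0.25 for normal (SD, n = 3 each), a difference of 0.60 with an exact two-sided permutation p of 0.10, the smallest that 3 against 3 libraries allow, and 0.30 after adjustment over the 3 comparisons made. With Slc4a9 in place of Slc26a4 the difference was 0.58, with overlap and an exact permutation p of 0.20.

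**Figure D2:**
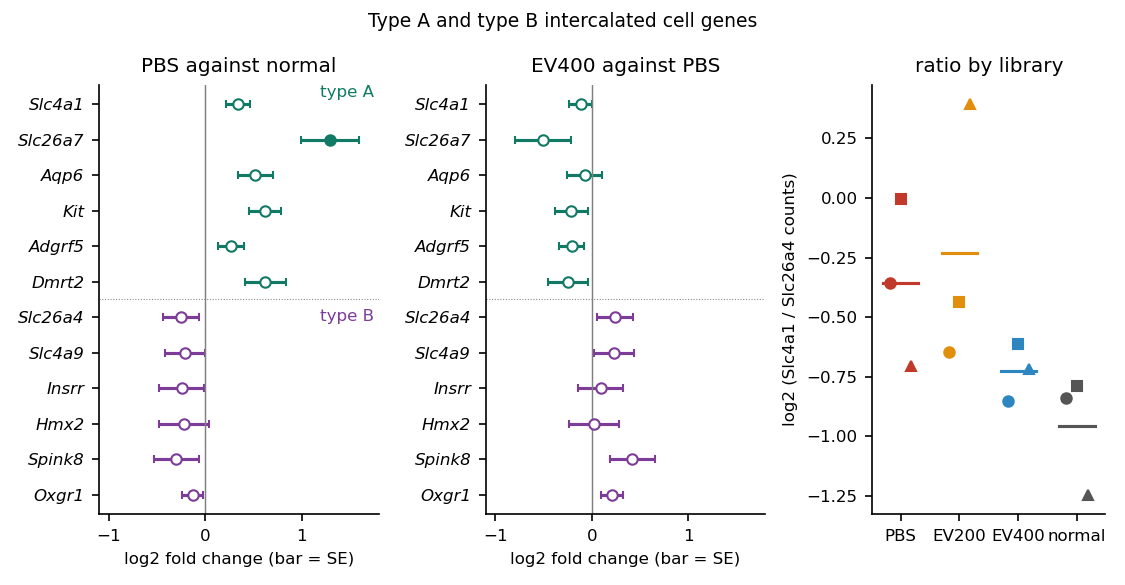
Left and middle, edgeR log2 fold change (bar, SE) of type A genes (green) and type B genes (purple), PBS against normal and EV400 against PBS; filled points had an adjusted p under 0.05. Right, log2 ratio of Slc4a1 to Slc26a4 counts per library with group means (line); marker shapes give the replicate as circle 1, square 2 and triangle 3. Between PBS and normal all 6 type A genes are right of 0 and all 6 type B genes left of it, and EV200 3 has the highest ratio at 0.39.

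The libraries PBS 2 and EV200 3 stood apart in several list sums. They had the highest summed type A levels (248 and 271 CPM, with the 10 other libraries at 160 to 240 CPM). Adgrf5, also expressed by endothelium, made up 122 and 125 CPM of these sums. PBS 2 was the highest library in Slc26a7 (6.77 CPM) and Kit (31.2 CPM). In Slc4a1, PBS 2 (48.2 CPM) lay below PBS 1 (54.1 CPM) and EV200 2 (57.9 CPM), and EV200 3 was highest (60.2 CPM). PBS 2 and EV200 3 had the lowest type B sums (144 and 153 CPM, against 201 to 250 CPM). They also had the highest macrophage and osteoclast sums (728 and 654 CPM, against 194 to 507 CPM). Their proximal tubule sums were the lowest (10100 and 11840 CPM, against 14350 to 18700 CPM). Their tubular injury sums were the highest (1513 and 1795 CPM, against 433 to 1176 CPM). The part of these other cells in the acid-base values was not tested. Adipoq, which encodes a hormone of fat cells, reached 7.67 CPM in PBS 3 and at most 0.124 CPM elsewhere. Foxi1 was still called without PBS 3 (adjusted p 0.0373 in edgeR). Without PBS 2, the difference in ratio between PBS and normal was 0.43, with the same order of libraries.

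Across the 12 libraries, the genes whose CPM followed Slc4a1 and Slc26a4 most closely were ranked by Pearson's r of log2 CPM among 11177 genes averaging at least 5 CPM. These values describe the libraries, which share treatment and tissue makeup, and carry no test. Nearest to Slc4a1 was Aqp6 (r = 0.952), then Ubash3b (0.919), Zfp7 (0.904), Sgpp2 (0.903) and Bst1 (0.9). Nearest to Slc26a4 were Oxgr1 (0.949), Car12, a membrane carbonic anhydrase (0.945), Insrr (0.937), Nacc2 (0.93) and Acss1 (0.926), with Slc4a9 at 0.923. Aqp6 stands on the type A list, and Oxgr1 and Insrr on the type B list. Slc4a1 and Slc26a4 had an r of -0.465 with each other. Foxi1 had 0.512 with Slc4a1 and -0.33 with Slc26a4. Its own nearest genes were Cldn8, a tight junction gene of the distal nephron (0.916), Scmh1 (0.909), Cdkl1 (0.896), Tpgs2 (0.885) and Plekha1 (0.872).

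None of the 3 proton pump subunit genes was called in PBS against normal kidneys. Each encodes a subunit form found in few tissues, in place of a form that most cells use. Atp6v1b1, at chr6:83743017-83758855 on the plus strand, had 87.1, 64.6 and 83.6 CPM in PBS kidneys, 85.4, 99.2 and 83.9 CPM in EV200 kidneys, 95.7, 97.1 and 77.0 CPM in EV400 kidneys, and 82.8, 76.3 and 83.7 CPM in normal kidneys. PBS 2 was the lowest library, and the EV200 libraries lay just above the normal libraries. The PBS-to-normal log2 fold change was -0.05 (SE 0.12, adjusted p 0.838 in edgeR), and without PBS 2 it was 0.09.

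Atp6v0d2 encodes the d2 subunit of the membrane sector, at chr4:19876838-19922566 on the minus strand. It had 32.4, 42.1 and 33.1 CPM in PBS kidneys, 30.3, 38.6 and 31.1 CPM in EV200 kidneys, 36.9, 31.5 and 34.6 CPM in EV400 kidneys, and 30.8, 26.8 and 30.4 CPM in normal kidneys. The PBS libraries lay above the normal ones, led by PBS 2, and PBS overlapped both vesicle groups. The log2 fold change of PBS against normal was 0.29 (SE 0.12, adjusted p 0.144 in edgeR), and without PBS 2 it was 0.17.

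Atp6v0d2 is also expressed by osteoclasts and macrophages. Of 12 listed genes of those cells, 11 were above 0 in PBS against normal kidneys, with a list median of 1.84 on the log2 scale. An unadjusted p under 0.05 was reached by 11 of the 12 in edgeR, against 29.8% of all genes. By edgeR's adjusted p, 5 were called, all higher: Gpnmb, Ctss, Lyz2, C1qa and Cd68, against 2.74% of all genes. The summed level of the 12 genes was 401, 728 and 507 CPM in PBS libraries and 222, 206 and 194 CPM in normal libraries. All 12 were counted in every PBS library and at least 11 in every normal one. PBS 2, the library highest in this sum, was also highest in Atp6v0d2. EV200 3, the second highest sum at 654 CPM, had 31.1 CPM of Atp6v0d2, close to the normal libraries at 26.8 to 30.8 CPM. The part of these cells in the Atp6v0d2 level was not tested.

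**Figure D3:**
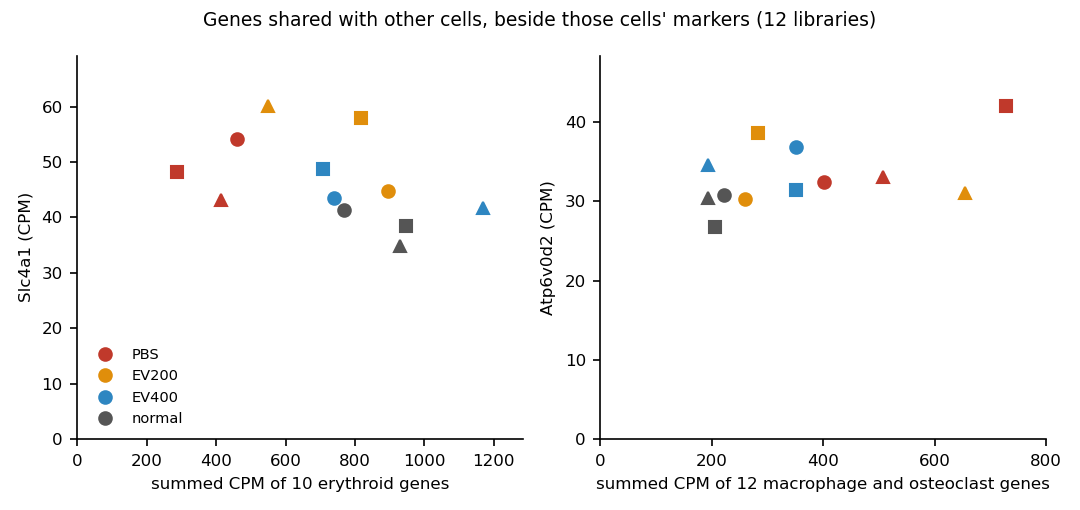
Slc4a1 CPM against the summed CPM of 10 red cell genes (left) and Atp6v0d2 CPM against the summed CPM of 12 macrophage and osteoclast genes (right), 1 point per library; marker shapes give the replicate as circle 1, square 2 and triangle 3. The PBS libraries have red cell sums of 287 to 460 CPM, below all others, and PBS 2 is highest in both Atp6v0d2 (42.1 CPM) and the macrophage and osteoclast sum (728 CPM).

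Atp6v1g3 encodes the G3 subunit of the pump's stalk, at chr1:138273738-138289462 on the plus strand. It had 31.0, 24.0 and 28.9 CPM in PBS kidneys, 34.5, 38.8 and 31.0 CPM in EV200 kidneys, 37.4, 32.1 and 43.1 CPM in EV400 kidneys, and 33.6, 29.2 and 29.8 CPM in normal kidneys. PBS overlapped normal, and both vesicle groups lay above PBS, though EV200 3 and PBS 1 were level at 31.0 CPM after rounding. The log2 fold change of PBS against normal was -0.14 (SE 0.13, adjusted p 0.469 in edgeR).

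The forms of these subunits that most cells use were lower in CPM in PBS kidneys. Of 16 widely expressed pump genes, 15 were below 0, with a median log2 fold change of -0.21 and none called in edgeR. An unadjusted p under 0.05 was reached by 5 of them, against 29.8% of all genes. In the authors' TPM, PBS means were higher than normal for some, such as Atp6v1d (124 against 114 TPM) and Atp6ap1 (170 against 160 TPM). Others stayed lower, such as Atp6v1a (227 against 238 TPM) and Atp6v1b2 (240 against 274 TPM). DESeq2 called 2 of them lower, Atp6v1a and Atp6v1b2, and limma-voom called 7 lower. Both tools called many more genes over the whole table than edgeR between PBS and normal kidneys, limma-voom the most. The paralog of Atp6v1b1, Atp6v1b2, had means of 343 CPM for PBS and 445 CPM for normal (-0.38, SE 0.14, adjusted p 0.102 in edgeR). Atp6v0d1 and Atp6v1g1, paralogs of Atp6v0d2 and Atp6v1g3, had log2 differences of -0.18 and -0.26 (adjusted p 0.32 and 0.15 in edgeR). Lower values were not limited to the widely expressed forms. Atp6v0a4, a pump gene listed for both intercalated cell types, had 183 to 231 CPM in PBS and 238 to 263 CPM in normal kidneys. Only limma-voom called it lower.

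Rhcg, at chr7:79593363-79617657 on the minus strand, had 83.8, 51.4 and 72.9 CPM in PBS kidneys, 86.6, 92.3 and 73.5 CPM in EV200 kidneys, 78.3, 84.7 and 80.3 CPM in EV400 kidneys, and 83.8, 72.3 and 79.1 CPM in normal kidneys. All groups overlapped, and PBS 2 was the lowest library. The log2 fold change of PBS against normal was -0.18 (SE 0.15, adjusted p 0.443 in edgeR). Rhcg shares its strand with an overlapping provisional gene, Gm45170, without sharing exons.

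Car2, at chr3:14886269-14900770 on the plus strand, had 268, 190 and 237 CPM in PBS kidneys, 281, 264 and 227 CPM in EV200 kidneys, 261, 225 and 263 CPM in EV400 kidneys, and 249, 226 and 257 CPM in normal kidneys. PBS 2 was again lowest and all groups overlapped. Its log2 fold change of PBS against normal was -0.08 (SE 0.13, adjusted p 0.72 in edgeR). Red cells and osteoclasts also express Car2.

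Slc4a9 lies at chr18:36528066-36556272 on the plus strand, and all gene positions are those of build GRCm38. Apart from the pair at Rhcg, no gene of the GENCODE annotation overlapped any of the 9.

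A list of 18 genes of both intercalated cell types includes 6 of the 9 members. In PBS against normal kidneys, 6 of the 18 had an unadjusted p under 0.05 in edgeR, against 29.8% of all genes. By edgeR's adjusted p, 2 were called, both higher. The first was Foxi1. The second was Bsnd, the barttin subunit of a chloride channel, with 47.7, 46.9 and 44.3 CPM in PBS kidneys and 37.1, 34.8 and 36.6 CPM in normal kidneys (0.36, SE 0.06, adjusted p 0.0355 in edgeR). Barttin is also made in the thick ascending limb, whose genes Slc12a1, Kcnj1 and Cldn16 rose as well (0.67, 0.47 and 0.78 on the log2 scale). The summed level of 7 loop and distal convoluted tubule genes was 3897 to 4695 CPM in PBS and 3145 to 3539 CPM in normal kidneys, and its part in the Bsnd value was not tested. The sodium-dependent chloride-bicarbonate exchanger Slc4a8 had a log2 difference of 0.56 (adjusted p 0.0638 in edgeR). Of the 18 genes, 9 were above 0 and 9 below, with a median of -0.02. DESeq2 called Foxi1, Bsnd and Slc4a8 higher. Besides these, limma-voom called Tfcp2l1 higher and Atp6v0a4 lower.

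Principal cells lie beside the intercalated cells and take up water and sodium. Of 9 principal cell genes, 1 was called: the water channel gene Aqp4 fell, with 18.9, 14.3 and 10.4 CPM in PBS kidneys and 29.1, 44.2 and 24.4 CPM in normal kidneys (-1.17, SE 0.26, adjusted p 0.0467 in edgeR). Of the 9 genes, 6 were above 0 and 3 below, with a list median of 0.03. DESeq2 called Aqp4 alone, and limma-voom called Aqp4 lower and Avpr2 and Scnn1g higher. The summed level was 278 to 490 CPM in PBS and 354 to 377 CPM in normal kidneys, which overlapped.

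**Figure D4:**
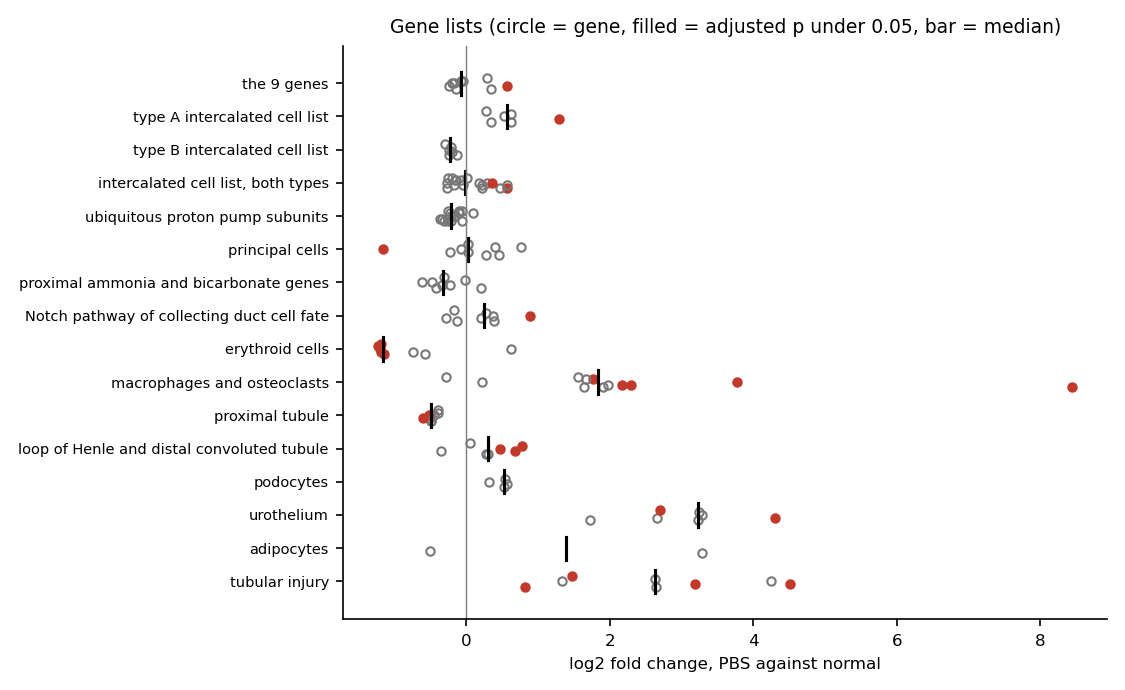
edgeR log2 fold change of PBS against normal for every tested gene of each list (circles; filled, adjusted p under 0.05) with the list median (bar). The type A median is 0.57, the type B median -0.23 and the median of the 9 genes -0.08.

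In kidneys of mice given vesicles, no member was called against normal, and the normal libraries are the same as those set against PBS above. For EV200 against normal, 0.0694% of all genes were called by edgeR, with no member among them, DESeq2 called Slc4a1, and limma-voom called Slc4a1 and Foxi1. At an unadjusted p under 0.05 there were 2 members, Slc4a1 and Foxi1, against 13.2% of all genes. Slc4a1, Foxi1 and Atp6v1b1 had every EV200 library above every normal one, against 11.9% of all genes. The log2 fold changes were 0.50 for Slc4a1 (SE 0.12, adjusted p 0.125) and 0.27 for Foxi1 (SE 0.09, adjusted p 0.238) in edgeR. All 6 type A genes were above 0 there at an unadjusted p under 0.05, with a median of 0.65. None of the 6 was called by edgeR, 4 were called by DESeq2 and all 6 by limma-voom. Over the whole table, DESeq2 and limma-voom called many more genes than edgeR in this comparison, with totals given below among the alternative fits. The type B median was -0.10, with none called by any of these tools, and it was 0.06 without EV200 3.

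For EV400 against normal, edgeR called 0.0% of all genes, and an unadjusted p under 0.05 was reached by 6.98%. Of the members, Foxi1 (0.24, SE 0.09, adjusted p 0.672) and Atp6v1g3 (0.28, adjusted p 0.709) were under that unadjusted level in edgeR, DESeq2 called none, and limma-voom called Foxi1. Slc4a1, Foxi1 and Atp6v0d2 had every EV400 library above every normal one on the CPM scale, against 8.28% of all genes. In the authors' TPM all 3 overlapped. All 6 type A genes were above 0 with a median of 0.39. Of these, 3 had an unadjusted p under 0.05, edgeR and DESeq2 called none and limma-voom called Kit. The type B list had 3 genes above 0 and a median of 0.01, with Slc26a4 at -0.01 and Slc4a9 at 0.02.

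Against the PBS group, which is the same group of libraries set against normal above, Foxi1 was lower and Atp6v1g3 was higher in value at both vesicle doses, and neither was called by edgeR. For EV400 against PBS, 0.0801% of all genes were called, and 2 members, Foxi1 and Atp6v1g3, had an unadjusted p under 0.05, as did 23.5% of all genes. Foxi1 was the 1 member whose EV400 libraries all lay below the PBS libraries, against 13.8% of all genes. Atp6v1g3 was the 1 member whose EV400 libraries all lay above, against 12.2%.

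The log2 fold change of Foxi1 in EV400 against PBS was -0.32 (SE 0.09, adjusted p 0.133 in edgeR), and that of Atp6v1g3 was 0.43 (SE 0.13, adjusted p 0.149 in edgeR). DESeq2 called both (adjusted p 0.0247 and 0.0436), and so did limma-voom (0.0292 and 0.0236). Both tools called many more genes over the whole table than edgeR in this comparison. In the authors' TPM, EV400 libraries held 30.7 to 34.4 TPM of Atp6v1g3 and PBS libraries 25.8 to 30.7 TPM, so that the groups met. The other members had differences of -0.12 for Slc4a1 (adjusted p 0.566), 0.24 for Slc26a4 (0.421), 0.23 for Slc4a9 (0.494), 0.20 for Atp6v1b1 (0.326), -0.06 for Atp6v0d2, 0.23 for Rhcg (0.348) and 0.11 for Car2 in edgeR.

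In edgeR's log2 fold changes of EV400 against PBS, the type A and type B lists lay on opposite sides of 0, with no gene called. All 6 type A genes were below 0, with a median of -0.21, and all 6 type B genes above it, with a median of 0.22. In the authors' TPM, the type B side was mixed. Means of Insrr (10.6 against 11.4 TPM) and Hmx2 (3.91 against 4.49 TPM) were lower in EV400 than in PBS kidneys. Oxgr1 was level at 12.6 TPM, and Spink8, Slc26a4 and Slc4a9 were higher. No gene of either list had an unadjusted p under 0.05 or was called by DESeq2 or limma-voom. Without PBS 2 the medians were -0.05 for type A, with 5 of 6 below 0, and 0.06 for type B, with 4 of 6 above 0. Slc26a4 and Slc4a9 then had log2 differences of 0.09 and 0.03. The ratio of Slc4a1 to Slc26a4 averaged -0.73 ± 0.12 in EV400 and -0.36 ± 0.35 in PBS kidneys (SD, n = 3 each), a difference of -0.37 with an exact two-sided permutation p of 0.20 and 0.30 after adjustment, and of -0.20 without PBS 2. Of the widely expressed pump genes, 14 of 16 were above 0 in edgeR with a median of 0.23. Of these 16, 7 had an unadjusted p under 0.05, against 23.5% of all genes. None was called in edgeR or DESeq2, while limma-voom called Atp6v1f higher and Atp6v0a1 lower. Atp6v1e1, the E1 subunit, had 0.34 (adjusted p 0.161 in edgeR).

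For EV200 against PBS, 0.016% of all genes were called and no member by edgeR or DESeq2, while limma-voom called Atp6v1g3 and Rhcg. Foxi1 (-0.29, SE 0.09, unadjusted p 0.00547, adjusted p 0.657) and Atp6v1g3 (0.32, SE 0.13, unadjusted p 0.0298, adjusted p 0.657) were the 2 members under an unadjusted 0.05 in edgeR, against 6.9% of all genes. Foxi1 alone lay below PBS without overlap, against 4.94% of all genes, and Atp6v1g3 alone above, against 5.53%. Rhcg had a difference of 0.28 (SE 0.15), Slc4a1 0.16, Slc26a4 0.05 and Slc4a9 0.12, with an adjusted p of at least 0.657 in edgeR.

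In EV200 against PBS, 5 of 6 type A genes were above 0 with a median of 0.13, and all 6 type B genes were above 0 with a median of 0.10. No gene of either list was called by edgeR or DESeq2 or had an unadjusted p under 0.05, and limma-voom called Slc26a7 higher. Without EV200 3, 3 type A genes were above 0 and 3 below, and without PBS 2 the type B median was -0.07.

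The acid-base ratio in EV200 kidneys averaged -0.23 ± 0.55, against -0.36 ± 0.35 in PBS kidneys (SD, n = 3 each), a difference of 0.13 with an exact two-sided permutation p of 0.80. That difference turned to -0.18 without EV200 3 and to -0.05 without PBS 3. The doses were not compared with each other here.

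**Figure D5:**
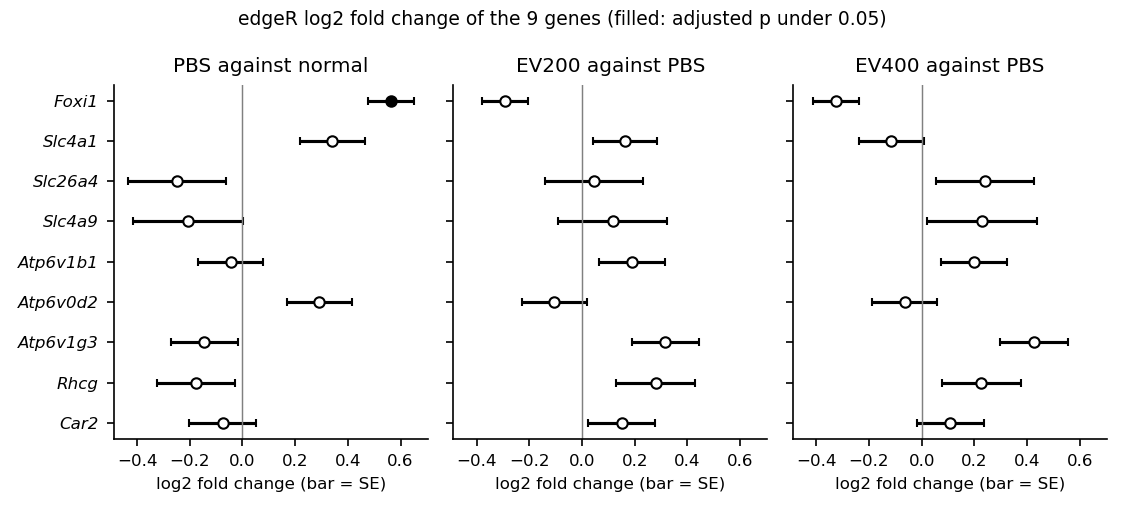
edgeR log2 fold change of the 9 genes (bar, SE) for PBS against normal, EV200 against PBS and EV400 against PBS; the filled point had an adjusted p under 0.05. Foxi1 is at 0.56 in PBS against normal and at -0.29 and -0.32 in the vesicle groups against PBS, comparisons that share the PBS libraries.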

How the data were processed

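Kidney RNA of 12 libraries was sequenced as paired reads of 101 bases after a strand-specific poly(A) preparation, per the labels' protocols. HISAT2 2.1.0 and StringTie 2.1.3b are listed beside FastQC 0.11.7 and Trimmomatic 0.38, with mm10 and GRCm38 as builds, in the submitters' processing notes. Which program counted the reads, with which annotation and strand setting, is not given in the sources used here. Per the file headers, the authors deposited whole-number read counts for 45777 genes, all with a gene name, and TPM values computed by them, which were used only to compare levels between genes and as a second scale. Another 12 columns of per-sample values were not used.

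The test was edgeR's quasi-likelihood test (edgeR 4.0.16, R 4.3.3) on the counts, with all 12 libraries in 1 fit, TMM factors, the default filter by group, 8 residual degrees of freedom and Benjamini-Hochberg adjustment over the 18730 genes left. CPM are counts over the library size times its TMM factor, and the standard error (SE) is the absolute log2 fold change divided by the square root of F. The 3 ratio comparisons used an exact two-sided permutation test. The scripts were tested on simulated data. Python 3.11.15 with numpy 2.4.6, pandas 2.3.3, scipy 1.17.1 and matplotlib 3.10.9 made the tables and figures.

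The 9 genes and 15 gene lists of 134 entries, of which 1 gene was missing from the table, were chosen with earlier results of these data known. Named are the 9 genes, the pump paralogs, and from each list up to 4 called genes, or else up to 3 genes, by smallest p; where a list had 5 called genes, the fifth (Cd68, Hba-a1) was named after its values were seen, as was Adipoq. The type A and type B lists are named in full. Genes named for a call of DESeq2 or limma-voom, and pump genes named for their TPM, were chosen after their values were seen. Some genes of the lists are not reported by name here. For Slc4a1, Slc26a4 and Foxi1 the 5 most correlated genes averaging at least 5 CPM are also named. Alternatives were DESeq2 1.42.0, its scaling factors, limma-voom (limma 3.58.1) with quality weights, no filter, the replicate number as a block, the compared groups alone, a pseudocount of 5 for the ratio, and each library left out. The lists with a library left out were an alternative chosen after seeing the data.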

Additional observations from a re-analysis of the deposited data

How the results depend on the processing

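Over the 9 genes and 5 comparisons, 495 of 540 alternative fits kept direction and side of the threshold, 5 lost a call, 12 gained one and 28 changed sign; the cause was not tested except where fewer libraries entered. Counts of genes called moved most. For PBS against normal they were 514 in edgeR, 299 without the filter, 2806 in DESeq2, 6164 in limma-voom, 1449 with the compared groups alone and 0 to 2277 with a library left out (0 without each normal library in turn, 1 without PBS 2, 79 without PBS 3, 2277 without PBS 1). For EV200 against normal the 13 calls became 486 in DESeq2, 1098 in limma-voom, 28 with those groups alone and 2 to 58 with a library left out (58 without EV200 1). For EV400 against normal the 0 calls became 29 in DESeq2 and 1481 in limma-voom, and stayed 0 with any library left out. For EV200 against PBS the 3 calls became 42 in DESeq2, 1649 in limma-voom, 0 with those groups alone and 1 to 6 with a library left out. For EV400 against PBS the 15 calls became 882 in DESeq2, 2731 in limma-voom, 2 with those groups alone and 0 to 26 with a library left out (0 without EV400 1 or EV400 2, 1 without PBS 1, PBS 2 or EV400 3, and 26 without PBS 3).

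Members called were 2 in DESeq2 for PBS against normal and 0 to 1 with a library left out; 1 in DESeq2, 2 in limma-voom and 0 to 1 for EV200 against normal; 1 in limma-voom for EV400 against normal; 2 in limma-voom for EV200 against PBS; and 2 in both tools for EV400 against PBS. With the replicate number as a block, genes called fell to 0 for PBS against normal (Foxi1 adjusted p 0.0786 in edgeR), 6 for EV200 against normal and 0 for EV200 against PBS. The ratio's exact paired permutation p was 0.25 for PBS against normal, 1.0 for EV200 against PBS and 0.25 for EV400 against PBS. With 3 pairs, 0.25 is the smallest p that this two-sided test allows. Same-numbered libraries deviated together in some pairs and in opposite directions in others (r from -0.296 to 0.344), and the pairing rests on numbers alone.

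Signs turned in limma-voom for Atp6v0d2 (0.13 in EV200 and 0.10 in EV400 against PBS), Atp6v1b1 in PBS against normal (0.041), Slc26a4 in EV400 against normal (0.0533) and Slc4a9 in EV200 against normal (0.0638). Slc26a4 in EV400 against normal also turned with DESeq2's scaling factors (0.0028), in DESeq2 (0.0020), without the filter (0.0086) and with those groups alone (0.0026). With a library left out, ranges crossed 0 for PBS against normal in Atp6v1b1 (-0.13 to 0.0874), Car2 (-0.19 to 0.0589), Rhcg (-0.34 to 0.0097) and Slc4a9 (-0.33 to 0.0078). They crossed 0 for EV200 against normal in Slc4a9 (-0.20 to 0.0739) and for EV400 against normal in Car2 (-0.0044 to 0.10), Slc26a4 (-0.068 to 0.091) and Slc4a9 (-0.0567 to 0.17). For EV200 against PBS they did so in Atp6v0d2 (-0.22 to 0.0291), Slc26a4 (-0.11 to 0.24), Slc4a9 (-0.0851 to 0.28) and the ratio (-0.18 to 0.34). For EV400 against PBS they did so in Atp6v0d2 (-0.13 to 0.0699) and Car2 (-0.0123 to 0.23). Each of the 9 genes had 889 or more counts in every library. The ratio difference ranged from 0.43 to 0.78 for PBS against normal and from -0.55 to -0.20 for EV400 against PBS.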

Other observations

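The proximal tubule makes ammonia and reclaims bicarbonate upstream of the intercalated cells. Of 8 genes of that work, none was called by edgeR in PBS against normal kidneys, and the median log2 fold change was -0.32. An unadjusted p under 0.05 was reached by 7 of them in edgeR, against 29.8% of all genes. DESeq2 called 4 of the 8 lower and 1 higher, and limma-voom called 6 lower, tools that called many more genes over the whole table than edgeR here. Pck1, which draws glutamine carbon toward glucose as ammonia is made, had means of 730 CPM for PBS and 1127 CPM for normal (-0.63, SE 0.20, adjusted p 0.0816 in edgeR). The proton exchanger gene Slc9a3 and the membrane carbonic anhydrase gene Car14 had log2 differences of -0.42 and -0.48 (adjusted p 0.0687 and 0.063 in edgeR). General proximal tubule genes lay lower too, with Cyp2e1 and Cubn called and a median of -0.50 over 8 genes. In EV400 against PBS kidneys, Car14 and Pck1 had differences of 0.57 and 0.70 (adjusted p 0.123 and 0.147 in edgeR), and DESeq2 called both.

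Notch signalling sets the choice between principal and intercalated cells in the developing collecting duct. Of 8 genes of that pathway, edgeR called 1 in PBS against normal kidneys, the ligand gene Jag1, which rose. It had 25.3, 37.2 and 26.5 CPM in PBS kidneys and 16.2, 16.5 and 15.6 CPM in normal kidneys (0.88, SE 0.17, adjusted p 0.0415 in edgeR). The list median was 0.24, with 5 genes above 0 and 3 below. An unadjusted p under 0.05 was reached by 3 of the 8 in edgeR, against 29.8% of all genes. Jag1 had 18.9, 19.6 and 16.9 CPM in EV400 kidneys, a log2 difference from PBS of -0.69 (adjusted p 0.127 in edgeR) that DESeq2 and limma-voom called, each with Notch2 also lower. Jag1 is expressed in several kidney cell types, and the cells behind these values were not identified.

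Other lists were read in PBS against normal kidneys. All 8 tubular injury genes were above 0, with a median of 2.63, and all 8 had an unadjusted p under 0.05 in edgeR. By edgeR's adjusted p, 4 of them were called: Clu, Sox9, Spp1 and Lcn2. All 7 urothelium genes were above 0, with a median of 3.23, and all 7 had an unadjusted p under 0.05 in edgeR. The 2 called were Upk3b and Psca. Of all genes, 29.8% reached that unadjusted level and 2.74% were called. Summed urothelium levels were 10.4 to 24.4 CPM in PBS and 1.83 to 3.4 CPM in normal kidneys. Of 4 podocyte genes none was called by edgeR, and the median was 0.53. All 4 had an unadjusted p under 0.05 in edgeR, against 29.8% of all genes. DESeq2 called 3 of the 4 and limma-voom 4, again with many more genes called over the whole table than in edgeR. Of 6 adipocyte genes 2 were tested, 1 had an unadjusted p under 0.05, and neither was called by edgeR, DESeq2 or limma-voom; the summed levels, 16.4 to 78.1 CPM in PBS and 29.4 to 63.6 CPM in normal kidneys, overlapped. Their part in the values of the intercalated cell genes was not tested.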
